A study of Mus musculus with 8 samples.

Results

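The synaptic vesicle release machinery comprised the synaptotagmins, synaptotagmin-like proteins, syntaxins, syntaxin-binding proteins, Vamps with Snap25, complexins, Unc13 proteins, Rims, Rab3 GTPases, Sv2 proteins and synapsins. Its members were taken by a rule on gene symbols that was set with earlier results of these data known. Of the 34836 gene names on the array, 72 matched. Their transcripts were measured in Nkx2-1-positive neurons of 3 hypothalamic nuclei, the arcuate nucleus (Arc, 2 samples), the ventromedial nucleus (VMH, 3 samples) and the dorsomedial nucleus (DMH, 3 samples). All samples came from 2-month-old female mice of the genotype Nkx2-1-CreERT2 x Rosa-ZsGreen, in which the Nkx2-1 driver carries a Cre recombinase that tamoxifen activates and the Rosa reporter then makes the green protein ZsGreen. Tamoxifen had been given to the mice of every group. ZsGreen-marked neurons were collected by laser microdissection and pooled, so each sample is a mixture of neuron types within a nucleus, and it holds the cells in which the driver was active when tamoxifen was given. No label tied a sample to an animal or said how many animals were used, so each p-value here reflects how far these few samples scatter, some of which may be technical.

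Release of transmitter and of neuropeptides rests on a common set of proteins. Vesicles are captured at the membrane by Rab GTPases and their effectors and are made ready by Unc13 and Rim proteins. They fuse when a Vamp on the vesicle zips together with a syntaxin and Snap25 on the plasma membrane, under the control of complexins, syntaxin-binding proteins and calcium-sensing synaptotagmins. Hypothalamic neurons release both small transmitters from synaptic vesicles and peptides from large dense-core vesicles, and several of the families named here serve both routes. The rule on symbols also takes in members that act elsewhere, such as Stx17 in fusion of autophagosomes.

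Each array carried 60-base probes, and the signal given for a gene is the log2 of the processed red signal of its brightest probe minus the 75th percentile of the array, so that 0 stands for that percentile, taken over the spots that are not controls. A level is compared only between samples and never between genes, since probes differ in how well they bind. The members held 113 probes, and 67 of the 72 genes entered the tests because in 1 nucleus or more all arrays had their probe well above background. The first 30 of the 60 bases of the probes behind the 7 members that passed a test are printed here. Values given for those genes are the brightness of these probes, except where another probe or a mean of probes is named.

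Sytl2: tgacgaatttacttagtaacctctaatgaa
Sv2b: ttctacattacatttatggctccttaacct
Vamp1: ttaggtgtagttggcattcgttcttctggg
Syt9: tcaaagggaacctatgttcaaagttcagcc
Syt1: aggggctttcctacttaagggaccaagtcc
Rab3b: agtgtgtaaagtgaggcccacctgcacagc
Syt17: aaacgccagcctagtattcacagtgttcgg

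These probes lie, in mm9, at chr7:97558507-97558566 on the plus strand for Sytl2, chr7:82260188-82260247 on the minus strand for Sv2b, chr6:125171818-125171877 on the plus strand for Vamp1 and chr7:114691578-114691637 on the plus strand for Syt9. The Syt1 probe lies at chr10:107935310-107935369 on the minus strand and the Rab3b probe at chr4:108613734-108613793 on the plus strand. The Syt17 probe spans chr7:125525530-125551561 on the minus strand, which is far longer than the probe itself, so it crosses an intron.

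Over all 3 nuclei, 6 of the 67 tested members differed at an adjusted p under 0.05 (limma's moderated F test, Benjamini-Hochberg over 27419 genes), where 1.72% of all genes did. They were Rab3b, Sv2b, Syt1, Syt17, Syt9 and Sytl2. Vamp1 joined them in the comparison of VMH with the other nuclei, which made 7 members past the threshold in at least 1 of 7 tests, where 2.24% of all genes were. The other 60 tested members passed none. At an unadjusted p under 0.05 the F test gave 27 of 67 members, against 17.7% of all genes. The nucleus means of a member spanned a median of 0.79 on the log2 scale, against 0.53 for all genes tested, and 25 members spanned more than 1, against 19.1% of all genes.

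Members were called for VMH and for Arc, each against the other nuclei, and none for DMH. Against the mean of Arc and DMH, 4 members were higher in VMH (Sytl2, Sv2b, Vamp1 and Syt9), where 0.872% of all genes were, and 2 were lower (Rab3b and Syt17), where 0.47% were. Set against the mean of VMH and DMH, Arc had 4 lower members (Sytl2, Sv2b, Syt9 and Syt1), where 0.416% of all genes were lower, and 1 higher member (Rab3b), where 0.193% were. No member passed for DMH against the mean of Arc and VMH in limma's test, where 0.839% of all genes did. At an unadjusted p under 0.05, 10 members were higher in DMH, against 6.48% of all genes, and 7 were lower, against 9.78%. The comparisons share samples, so a gene called in several of them is not counted as independent evidence.

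Between pairs of nuclei, Rab3b and Syt17 were higher in DMH than in VMH (background 0.441%) and Sytl2 was lower (background 0.788%). Syt1 alone was higher in DMH than in Arc (background 0.241%), and no member was lower there in limma's test (background 0.175%), or 5 at an unadjusted p under 0.05, where 9.84% of all genes were. VMH exceeded Arc for Sytl2, Sv2b, Syt1 and Syt9 (background 0.66%) and fell short of it for Rab3b (background 0.317%). Sytl2, Stxbp6 and Cplx4 entered the tests only through VMH, the one nucleus in which all their arrays were above background, and Sv2b only through VMH and DMH. Among the 60 members above background on all 8 arrays, tested with only such probes, 6 passed for VMH against the other nuclei (background 1.4% of the 24204 genes tested that way) and 3 for Arc (background 0.545%).

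**Figure D1:**
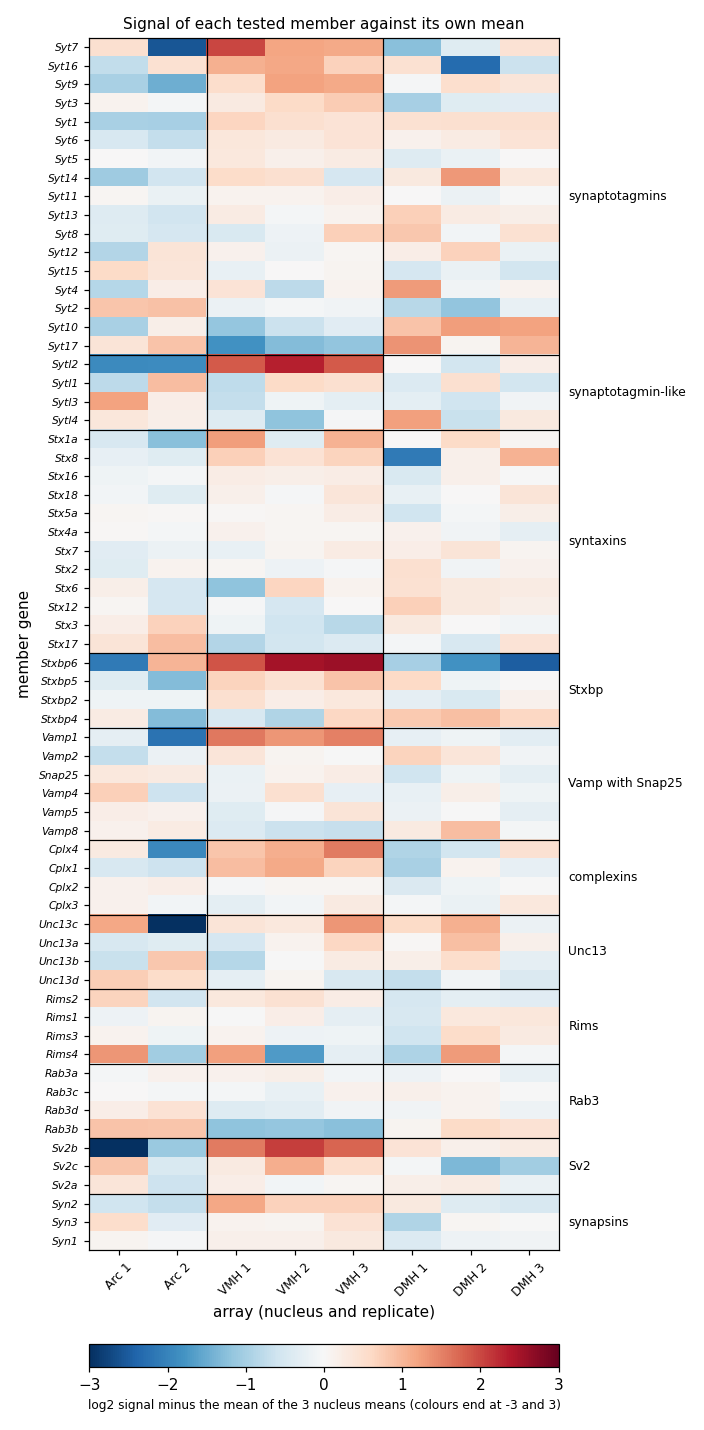
Signal of tested members on each of the 8 arrays, as the log2 signal minus the mean of the gene's 3 nucleus means (colour, from -3 in blue to 3 in red), grouped by family and, within a family, ordered by the difference of VMH from the other nuclei. Sytl2, Sv2b, Vamp1 and Stxbp6 are red on all 3 VMH arrays, while Rab3b and Syt17 are blue there.

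All 3 VMH arrays lay above the other 5 arrays for 16 of 67 members (background 5.46%) and below them for 4 (background 4.02%). Among the 16 are Sytl2, Stxbp6 and Cplx4, which passed the filter on dim probes only through VMH. Sv2b, also among them, passed it only through VMH and DMH, so the filter favours this position for these genes. Both Arc arrays lay above all others for 8 members (background 10%) and below them for 12 (background 6.64%, Sytl2 and Sv2b among the 12 without an Arc array well above background), and the 3 DMH arrays lay above for 2 (background 3.59%) and below for 3 (background 5.65%). The highest nucleus mean was in VMH for 30 members (background 30.9%), in DMH for 24 (29.7%) and in Arc for 13 (39.4%). Arc had the lowest mean for 31 members (background 32.8%). The median difference of VMH from the other nuclei was 0.12 over members and 0.01 over all genes, and for Arc it was -0.14 over members and 0.04 over all genes. For DMH it was 0.07 over members and -0.04 over all genes, and the members' value turned to -0.06 under normexp background correction, to -0.02 without a filter on dim probes, to -0.13 without Arc replicate 2 and to -0.03 without DMH replicate 3. Without Arc replicate 2 the members' median for Arc was -0.02, against 0.03 for all genes.

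Neurofilament genes were higher in VMH too. The mean signal of 6 neuronal markers (Rbfox3, Tubb3, Map2, Eno2, Nefl and Nefm, all above background on every array) was 2.85 to 2.88 in VMH, 1.75 to 1.79 in Arc and 1.65 to 1.91 in DMH. Of the 6, 2 passed for VMH against the other nuclei, the neurofilament genes Nefl (higher by 2.28, adjusted p = 0.0118) and Nefm (higher by 2.18, adjusted p = 0.0249). Rbfox3 was higher by 1.05 (adjusted p = 0.166) and Eno2 by 0.59 (adjusted p = 0.139), both short of the threshold. For each of them all VMH arrays lay above every other array. Map2 differed by 0.14 (adjusted p = 0.843) and Tubb3 by 0.30 (adjusted p = 0.585). Microglial markers ran the other way, at -1.29 to -0.69 in VMH, -0.30 to -0.17 in Arc and -0.72 to -0.43 in DMH, with 6 of 8 above background everywhere and none past the threshold in VMH. Astrocyte markers were at 0.15 to 0.65 in VMH, 0.04 to 0.35 in Arc and 0.74 to 0.93 in DMH, and 7 of 7 tested were above background on all arrays. Of these, Gjb6, a gap junction gene, was called higher in DMH (by 1.19, adjusted p = 0.0358). Markers of tanycytes and ependyma were at -1.03 to -0.80 in VMH, -0.84 to -0.73 in Arc and -1.44 to -1.05 in DMH. All 4 tested were above background on all arrays, and Col23a1 was called lower in DMH (-1.83, adjusted p = 0.0358). Ccdc153 went the other way in DMH (0.57, adjusted p = 0.307), while Rax (-0.25) and Foxj1 (-0.14) were lower by less and not called. The part of these markers in the differences of the members was not tested. In such bulk samples fewer cells of a type and less RNA per cell cannot be told apart. The nuclei carried their own markers: 5 of 5 Arc genes (among them Pomc and Agrp), 4 of 4 VMH genes (among them Nr5a1) and 4 of 4 DMH genes passed as higher in the nucleus they mark.

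The synaptotagmin-like family held the member with the smallest p of all. Sytl2 encodes an effector of Rab27 that links secretory vesicles to the plasma membrane. Its signal was -2.49, -1.99 and -2.48 on the VMH arrays, -4.31, -4.87 and -4.12 on the DMH arrays, and -6.24 and -6.21 on the Arc arrays. The VMH arrays lay above all others. Neither Arc array was well above background for Sytl2, and 2 of 3 DMH arrays were, so Arc has only a bound and DMH and Arc are given no order. VMH exceeded the mean of the others by a measured 3.01 ± 0.23 (SE) on the log2 scale (adjusted p = 0.00226) and was at least 3.73-fold higher. A fold written with "at least" sets the bright mean against the lowest signal well above background on each dim array. Where the dim probe's own signal is higher, that signal is taken. Such a fold is a bound only for signals processed in this way. Under normexp background correction, VMH differed by less than these folds for Sytl2 and Sv2b, against the other nuclei and against Arc. Against Arc alone VMH was at least 3.22-fold higher (measured difference 3.90 ± 0.29, adjusted p = 0.00249). DMH was lower than VMH by 2.11 ± 0.26 (adjusted p = 0.0126), and DMH against Arc missed the threshold (adjusted p = 0.0546).

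The differences of Sytl2 shrank where dim signals were handled otherwise. With normexp background correction VMH exceeded the other nuclei by 1.11 and Arc by 1.27, and with a floor on dim signals by 1.90 and 1.69, all still past the threshold. Arc against the other nuclei (measured -2.85, adjusted p = 0.00593, at least 1.55-fold lower) was lost under normexp (-0.80, adjusted p = 0.0777) and with the floor (-0.63, adjusted p = 0.291). The lower level in DMH than in VMH was -0.95 under normexp, still past the threshold, and was lost without VMH replicate 2 (adjusted p = 0.0519).

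Other synaptotagmin-like genes passed no test. Sytl3, likewise an effector of Rab27, had signals of 1.21 and 0.21 in Arc, -0.71, -0.13 and -0.28 in VMH and -0.28, -0.59 and -0.11 in DMH. Both Arc arrays were the highest, but the difference of Arc from the others (1.06 ± 0.31) had an adjusted p of 0.175. Sytl1 and Sytl4 overlapped between nuclei, with means of 4.11, 4.13 and 3.87 for Sytl1 and 0.20, -0.60 and 0.22 for Sytl4 in Arc, VMH and DMH. A further Sytl4 probe differed by 0.76 between VMH and the others, where the brightest gave -0.81. Sytl5 was above background on 1 of 8 arrays and was not tested.

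Myrip, which ties Rab27 vesicles to actin and myosin motors, was called. It was the only called gene of the 3 tested of Rab27 and its effectors outside the family (background 2.24%). Its signal was -0.45, -0.56 and -0.73 in VMH, -2.17 and -2.05 in Arc and -1.64, -1.97 and -2.29 in DMH. VMH lay above every other array, with a difference of 1.46 from the mean of the others (adjusted p = 0.0169), as it did for Sytl2. Neither Rab27 gene passed. Rab27b differed from the other nuclei by -0.16 in VMH (adjusted p = 0.798). Rab27a gave -0.56, -0.32 and -1.08 in VMH, -0.05 and -0.60 in Arc and 0.46, 0.90 and 0.36 in DMH, highest on the DMH arrays, with a difference of 1.06 in DMH (adjusted p = 0.129) and of -0.77 in VMH (adjusted p = 0.237), the opposite sign in VMH to Sytl2 and Myrip.

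Among the vesicle glycoproteins, which resemble transporters and sit in the vesicle membrane, Sv2b differed most. Sv2b gave -1.66, -1.15 and -1.47 in VMH, -2.82, -3.07 and -2.98 in DMH, and -6.25 and -4.33 in Arc. The 3 ranges were apart, and neither Arc array was well above background. VMH exceeded the mean of the other nuclei by a measured 2.70 ± 0.40 (adjusted p = 0.024) and was at least 4.16-fold higher. Against Arc, VMH was at least 5.99-fold higher (measured 3.86 ± 0.50, adjusted p = 0.0163), and Arc was at least 3.53-fold lower than the mean of VMH and DMH (adjusted p = 0.0326). The step from VMH to DMH (-1.53 ± 0.44, adjusted p = 0.184) did not pass.

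Normexp lowered the Sv2b differences to 1.33 for VMH against the others, 1.66 for VMH against Arc and -1.16 for Arc against the others, all past the threshold, and a floor lowered the last to -1.82. VMH against the others was lost without any 1 VMH or DMH array (adjusted p 0.0572 to 0.0999), as was Arc against the others (0.0689 to 0.0846), and VMH against Arc was lost without any 1 VMH array (0.0534 to 0.0624). Arc against the others was also lost without the filter for dim probes (adjusted p = 0.0602) and when the slide row was blocked (0.0535).

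Sv2a, the most widespread form, overlapped between the 3 nuclei, at 1.81 and 0.82 in Arc, 1.66, 1.36 and 1.51 in VMH and 1.64, 1.71 and 1.25 in DMH. Sv2c gave 0.31 and -0.98 in Arc, -0.27, 0.55 and -0.02 in VMH and -0.58, -1.87 and -1.58 in DMH. The lower DMH mean (-1.22 ± 0.41 against the others, adjusted p = 0.22) did not pass with the brightest probe. A further Sv2c probe was at -6.03 to -6.62 on the DMH arrays, -3.10 and -2.98 on the Arc arrays and -3.32 to -2.39 on the VMH arrays. It was above background on only 5 of 8 arrays, so its difference is not a measured size. The remaining Sv2c probe, above background on all 8, differed by -0.41 in DMH. The mean of all Sv2c probes, the dim one included, brought Sv2c past the threshold in DMH.

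**Figure D2:**
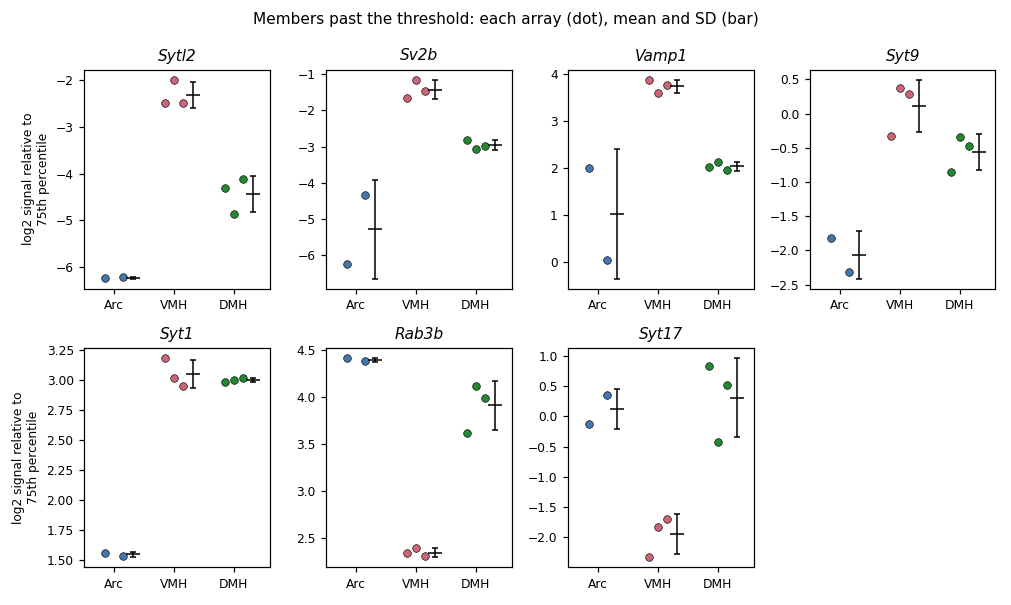
Log2 signal relative to the array's 75th percentile (vertical axis, a separate scale per gene) of the 7 members past the threshold in at least 1 test, with a dot per array and a bar for the mean and SD of Arc (blue, n = 2), VMH (red, n = 3) and DMH (green, n = 3). Sytl2 and Sv2b are highest in VMH and were not well above background on either Arc array, Rab3b and Syt17 are lowest in VMH, and Syt1 is low on both Arc arrays at 1.56 and 1.53.

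Of the 17 synaptotagmins, the calcium sensors and their relatives, 3 passed the F test (background 1.72%). Syt1, the main sensor of fast transmitter release in the forebrain, gave 1.56 and 1.53 in Arc, 3.18, 3.01 and 2.95 in VMH and 2.98, 3.00 and 3.01 in DMH. Both Arc arrays lay clearly below the rest, while VMH and DMH shared a level. Arc was lower than the mean of the others by 1.48 ± 0.17, a 2.78-fold difference (limma, adjusted p = 0.0156). VMH exceeded Arc by 1.50 ± 0.19 (adjusted p = 0.0151) and DMH exceeded it by 1.45 ± 0.19 (adjusted p = 0.0319). Between DMH and VMH Syt1 differed by -0.05 ± 0.17 (adjusted p = 0.93).

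The size of the Syt1 difference moved little when arrays were left out (Arc against the others, -1.50 to -1.44), though the call was lost without Arc replicate 1 or DMH replicate 2 (adjusted p 0.0510 to 0.0516). VMH against Arc was lost without either Arc array or any 1 VMH array (0.0504 to 0.0624). DMH against Arc was lost without any 1 of the 8 arrays (0.0651 to 0.0864), without the filter for dim probes (0.051) and when the slide row was blocked (0.0666).

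Syt9, a sensor of fast release in some neurons, was also low in Arc. Its signal was -1.82 and -2.31 in Arc, -0.32, 0.38 and 0.29 in VMH and -0.86, -0.34 and -0.48 in DMH. Arc was apart from both other nuclei, but the lowest VMH array and the highest DMH array almost touched. VMH exceeded the mean of the others by 1.43 ± 0.24 (adjusted p = 0.0397) and Arc by 2.18 ± 0.30 (adjusted p = 0.0224), a 4.52-fold difference. Arc was lower than the mean of the others by 1.84 ± 0.27 (adjusted p = 0.0357).

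For Syt9, VMH against the others was lost without any 1 of the 8 arrays (adjusted p 0.0633 to 0.153), Arc against the others without any 1 array other than VMH replicate 1 (0.0626 to 0.126), and VMH against Arc without either Arc array, VMH replicate 2 or 3, or DMH replicate 3 (0.0509 to 0.0837). The first and the second were also lost without a filter on dim probes (0.0664 and 0.0624), and all 3 when the slide row was blocked (0.0936, 0.0756 and 0.0519).

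Syt17, an unusual relative that lacks the membrane-spanning segment of other synaptotagmins, was lowest in VMH. Its signal was -2.32, -1.82 and -1.70 in VMH, -0.12 and 0.35 in Arc and 0.83, -0.43 and 0.52 in DMH. Every VMH array lay below every other array, and Arc and DMH overlapped. VMH was lower than the mean of the others by 2.16 ± 0.32, a 4.46-fold difference (adjusted p = 0.0246), and DMH exceeded VMH by 2.25 ± 0.36 (adjusted p = 0.0322). VMH against the others was lost without either Arc array, any 1 VMH array or DMH replicate 3 (adjusted p 0.0518 to 0.108) and when the slide row was blocked (0.06). DMH against VMH was lost without any 1 array other than DMH replicate 2 (0.0516 to 0.115), without the filter for dim probes (0.0569) and when the slide row was blocked (0.0849).

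Among the other synaptotagmins, Syt2, the fast sensor of many hindbrain and fast-spiking synapses, gave -0.41 and -0.35 in Arc, -1.41, -1.30 and -1.35 in VMH and -2.06, -2.41 and -1.46 in DMH. Its 3 nuclei did not overlap, with Arc highest, but no test passed (F, adjusted p = 0.0753). Syt2 was thus ordered from Arc down to DMH, whereas Syt1 was lowest in Arc. Further synaptotagmins had VMH arrays above all others without passing, namely Syt3, Syt5, Syt7, Syt11 and Syt16. Syt7, a slow sensor of high affinity, gave 1.75, 0.93 and 0.90 in VMH, 0.23 and -2.80 in Arc and -1.50, -0.60 and 0.19 in DMH, and its spread in Arc was wide (adjusted p = 0.23 for VMH against the others).

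Syt10, which serves regulated secretion of growth factor vesicles in the olfactory bulb, was the 1 synaptotagmin with all DMH arrays above the rest. It gave 4.34, 4.74 and 4.69 in DMH, 2.33, 2.84 and 3.14 in VMH and 2.51 and 3.67 in Arc. The difference of DMH from the others was 1.66 ± 0.31 and missed the threshold (adjusted p = 0.0734). Of the 17 synaptotagmins, 10 were named here, and the others (Syt4, Syt6, Syt8, Syt12, Syt13, Syt14 and Syt15) passed no test.

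The Rab3 GTPases sit on vesicles in their active form and bind Rim proteins at the active zone. Rab3b gave 4.41 and 4.38 in Arc, 3.62, 4.12 and 3.99 in DMH and 2.33, 2.39 and 2.30 in VMH. VMH was clearly lowest and Arc was above every other array. VMH was lower than the mean of the others by 1.81 ± 0.17, a 3.51-fold difference (adjusted p = 0.00516), and lower than Arc by 2.06 ± 0.22 (adjusted p = 0.00974). DMH exceeded VMH by 1.57 ± 0.19 (adjusted p = 0.0131), and Arc exceeded the mean of the others by 1.27 ± 0.19 (adjusted p = 0.0402). Arc and DMH alone differed by -0.49 ± 0.22 (DMH minus Arc, adjusted p = 0.313).

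The lower Rab3b level in VMH kept its call under all 18 alternatives tried (log2 difference -1.88 to -1.75). DMH against VMH was lost without any 1 VMH array or DMH replicate 2 or 3 (adjusted p 0.0539 to 0.0609), and Arc against the others without any 1 of the 8 arrays (0.0527 to 0.121), without the filter for dim probes (0.0625) and when the slide row was blocked (0.0839).

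No paralog of Rab3b passed a test. Rab3a, the main neuronal form, gave 4.03 and 4.22 in Arc, 4.21, 4.27 and 4.01 in VMH and 3.92, 4.10 and 3.87 in DMH, and it differed by 0.12 ± 0.16 between VMH and the others (adjusted p = 0.845). Rab3c had means of 2.03, 2.00 and 2.13 in Arc, VMH and DMH. Rab3d, known from granules of secretory cells, gave -0.18 and 0.05 in Arc, -0.78, -0.71 and -0.48 in VMH and -0.50, -0.27 and -0.53 in DMH, with Arc above all others and no call (F, adjusted p = 0.311). A further Rab3d probe ran the other way, at -0.29 for Arc against the others.

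In the SNARE proteins themselves, 1 member of 6 tested among the Vamps and Snap25 passed a limma test. None of 13 syntaxins did (3 at an unadjusted F p under 0.05, background 17.7%). Of all genes, 2.24% passed at least 1 of the 7 tests. Vamp1, a vesicle SNARE also called synaptobrevin 1, gave 3.86, 3.59 and 3.77 in VMH, 2.02, 2.14 and 1.96 in DMH and 2.00 and 0.06 in Arc. VMH was high on every array, DMH was tight and the 2 Arc arrays were far apart. VMH exceeded the mean of the others by 2.21 ± 0.39, a 4.61-fold difference (adjusted p = 0.0456). Against Arc alone the difference of 2.71 ± 0.49 missed the threshold (adjusted p = 0.0532).

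The call for Vamp1 was lost without any 1 VMH or DMH array (adjusted p 0.0944 to 0.17), under quantile normalization (0.0527), without the filter for dim probes (0.0783) and when the slide row was blocked (0.0909). A dimmer Vamp1 probe at chr6:125190387-125190446 in mm9 differed by 0.36 between VMH and the others, in the same direction, and the mean of both probes differed by 1.28 (adjusted p = 0.0187).

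Vamp2, the principal vesicle SNARE of central synapses, gave 0.02 and 0.55 in Arc, 1.11, 0.82 and 0.72 in VMH and 1.40, 1.1 and 0.62 in DMH. Both Arc arrays were lowest, and no test passed (Arc against the others -0.68 ± 0.27, adjusted p = 0.279). Snap25 gave 7.73 and 7.68 in Arc, 7.23, 7.52 and 7.65 in VMH and 6.83, 7.30 and 7.12 in DMH, with Arc at the top and adjusted p = 0.367. Vamp8, a SNARE of endosomes and granules, was lowest on the 3 VMH arrays (-3.13, -3.36 and -3.40, against -2.58 and -2.46 in Arc and -2.44, -1.79 and -2.78 in DMH), with adjusted p = 0.174. Vamp3 was above background on 3 arrays, 1 in each nucleus, and Vamp7 on 1, and neither was tested.

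Stx1a, a syntaxin of the plasma membrane at synapses, was lowest in Arc without passing a test. Stx1a gave 0.83 and 0.06 in Arc, 2.55, 0.95 and 2.34 in VMH and 1.32, 1.88 and 1.37 in DMH, with Arc lowest on both arrays (-1.29 ± 0.44 against the others, adjusted p = 0.228). The syntaxins with the smallest p were Stx17, which acts in fusion of autophagosomes, and Stx3, found at ribbon synapses and epithelial surfaces. Stx17 gave -0.50 and 0.04 in Arc, -1.78, -1.45 and -1.31 in VMH and -0.96, -1.37 and -0.48 in DMH (F, adjusted p = 0.167), and Stx3 was lowest on the 3 VMH arrays at -1.05, -1.52 and -1.77 (F, adjusted p = 0.216). The 3 probes of Stx3 disagree, since VMH minus the others was 1.08 on the dimmest and -0.77 on the brightest. For Stx17, Arc minus the others was 1.00 on the brightest probe and -0.24 on a further one. Stx11 and Stx19 were each above background on 1 Arc array and nowhere else, and they were not tested.

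Syntaxin-binding proteins gave no call among 5 in limma's tests (2 at an unadjusted F p under 0.05, background 17.7%). Stxbp6, known as amisyn, which binds syntaxin and Snap25 in place of a Vamp, gave -2.28, -1.68 and -1.60 in VMH, -6.30 and -3.14 in Arc and -5.17, -5.99 and -6.63 in DMH. It was above background on all VMH arrays, on 1 Arc array and on no DMH array. VMH lay above every other array and was at least 8.14-fold higher than DMH, but neither DMH against VMH (adjusted p = 0.0556) nor VMH against the mean of the others (adjusted p = 0.0624) passed. With a floor on dim signals both comparisons passed. Stxbp5, or tomosyn, an inhibitor of SNARE assembly, gave -2.44 and -3.38 in Arc, -1.41, -1.63 and -1.23 in VMH and -1.50, -2.21 and -2.08 in DMH, lowest in Arc (adjusted p = 0.14).

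Complexins, which clamp and then promote the assembled SNARE complex, also gave no call in limma's tests (2 of 4 at an unadjusted F p under 0.05, background 17.7%). Cplx1 gave 3.38, 3.58 and 3.12 in VMH, 1.97 and 1.82 in Arc and 1.48, 2.56 and 2.19 in DMH. The 3 VMH arrays were above all others, and the difference of 1.37 ± 0.26 had an adjusted p of 0.0585. Cplx4, best known from retinal ribbon synapses, was above background on the 3 VMH arrays (-3.36, -3.10 and -2.63), on 1 DMH array and on neither Arc array (VMH against the others, adjusted p = 0.202). Cplx3 had means between 1.26 and 1.33 in the 3 nuclei.

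Cplx2 gave 7.69 and 7.75 in Arc, 7.51, 7.61 and 7.61 in VMH and 7.11, 7.42 and 7.55 in DMH on its brightest probe, highest in Arc without a call (F, adjusted p = 0.547). That probe is placed on chromosome 5 in mm9, although RefSeq places the gene on chromosome 13, and a further Cplx2 probe is placed on chromosome 6. A pair of its probes on chromosome 13 followed the same order, whereas another on chromosome 13 was highest in VMH (2.98, 2.94 and 3.27, against 2.46 and 2.40 in Arc and 1.99, 2.45 and 2.72 in DMH). The probes of Cplx2 thus disagree, and no direction is given for the gene.

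Priming factors and scaffolds gave no call in limma's tests (1 of 4 Unc13 genes and 0 of 4 Rims genes at an unadjusted F p under 0.05, background 17.7%). Unc13a, also called Munc13-1 and essential for priming at most central synapses, gave 0.45 and 0.57 in Arc, 0.43, 1.04 and 1.55 in VMH and 0.97, 1.85 and 1.08 in DMH, and the nuclei overlapped. Its probes disagree, since DMH minus the others was 0.54 on the brightest and -0.53 on another. Unc13d, which primes granules in immune cells, had the smallest p of its family and was highest in Arc (2.39 and 2.20, against 1.37, 1.72 and 1.16 in VMH and 0.94, 1.55 and 1.22 in DMH; F, adjusted p = 0.157). Rims1 gave 1.65 and 1.89 in Arc, 1.80, 2.02 and 1.55 in VMH and 1.34, 2.14 and 2.15 in DMH, a complete overlap on its brightest probe. On a further Rims1 probe the Arc arrays, at 0.48 and 0.40, lay below all others (Arc minus the others -0.50). Rims2 gave 2.28 and 1.05 in Arc, 1.94, 2.06 and 1.84 in VMH and 1.1, 1.31 and 1.28 in DMH, so every VMH array lay above every DMH array and the 2 Arc arrays lay outside both (DMH minus VMH -0.71 ± 0.31, unadjusted p = 0.0488, adjusted p = 0.375). Rims3 overlapped, with means of 3.76, 3.72 and 3.86 in Arc, VMH and DMH. The dim Unc13c and Rims4 varied within nuclei more than between them, with Unc13c at -1.58 and -6.23 on the 2 Arc arrays.

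Synapsins tether vesicles in the reserve pool, and none passed limma's tests (1 of 3 at an unadjusted F p under 0.05, background 17.7%). Syn2 gave 0.98 and 0.85 in Arc, 2.74, 2.27 and 2.27 in VMH and 1.88, 1.19 and 1.09 in DMH. The 3 nuclei did not overlap, with VMH highest, and the difference of VMH from the others (1.28 ± 0.24) had an adjusted p of 0.0538. Its dimmer probe differed by 0.12. Syn1 gave 5.73 and 5.62 in Arc, 5.79, 5.79 and 5.93 in VMH and 5.24, 5.48 and 5.54 in DMH, again without overlap in the order VMH, Arc, DMH but over a range of means from 5.42 to 5.84 (F, adjusted p = 0.4). Syn3 had means of 1.50, 1.61 and 1.12 in Arc, VMH and DMH, while Arc minus the others was 0.13 on this probe and -1.23 on a further one.

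**Figure D3:**
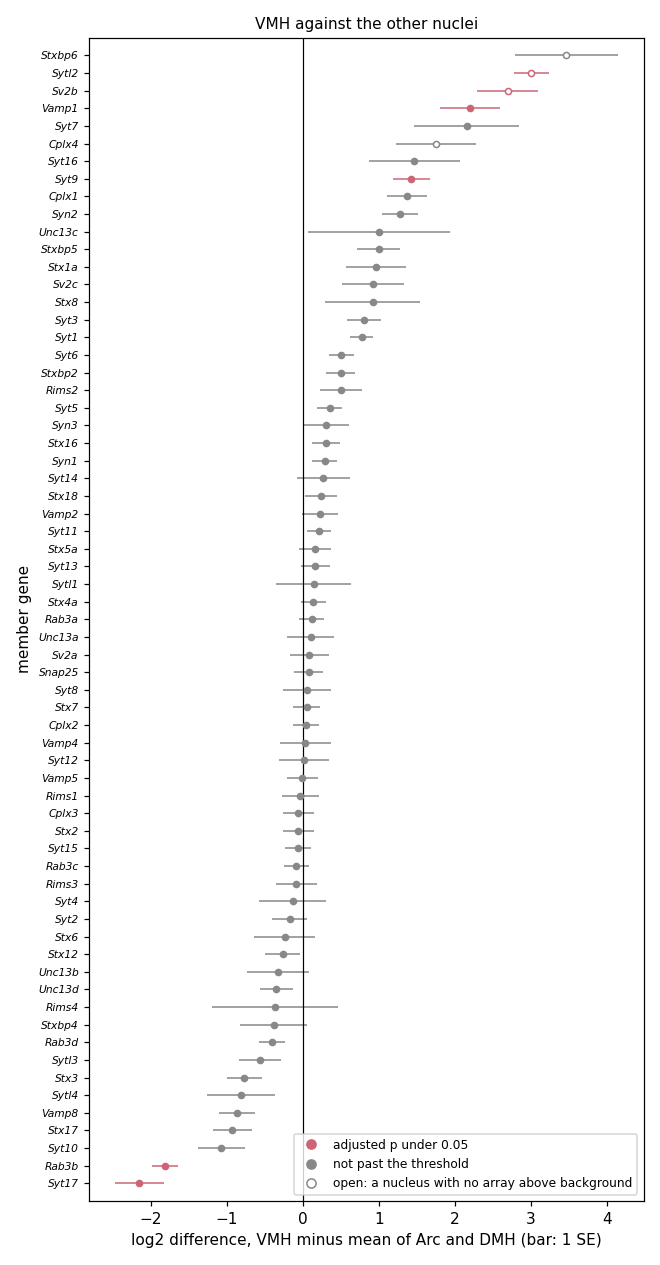
Log2 difference of VMH from the mean of Arc and DMH (horizontal axis) for tested members (vertical axis), with a bar of 1 SE and members at an adjusted p under 0.05 in red. Open circles mark members with no array above background in some nucleus, whose plotted difference is not a measured size, among them Stxbp6, which does not pass, and Sytl2 and Sv2b, which do. Rab3b and Syt17 form the lower end at -1.81 and -2.16.

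Taking the 15 genes of the core fusion machinery alone (among them Snap25, Vamp2, Syt1, Cplx1, Unc13a, Rims1, Rab3a and Syn1), only Syt1 passed the F test (background 1.72%). Vamp1 passed as higher in VMH than in the others (background 0.872%). The median span of their nucleus means was 0.62, against 0.53 for all genes tested. Their median difference of Arc from the other nuclei was -0.20, against 0.04 for all genes, and of VMH from Arc 0.19, against -0.03. The other 13 passed no test.

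**Figure D4:**
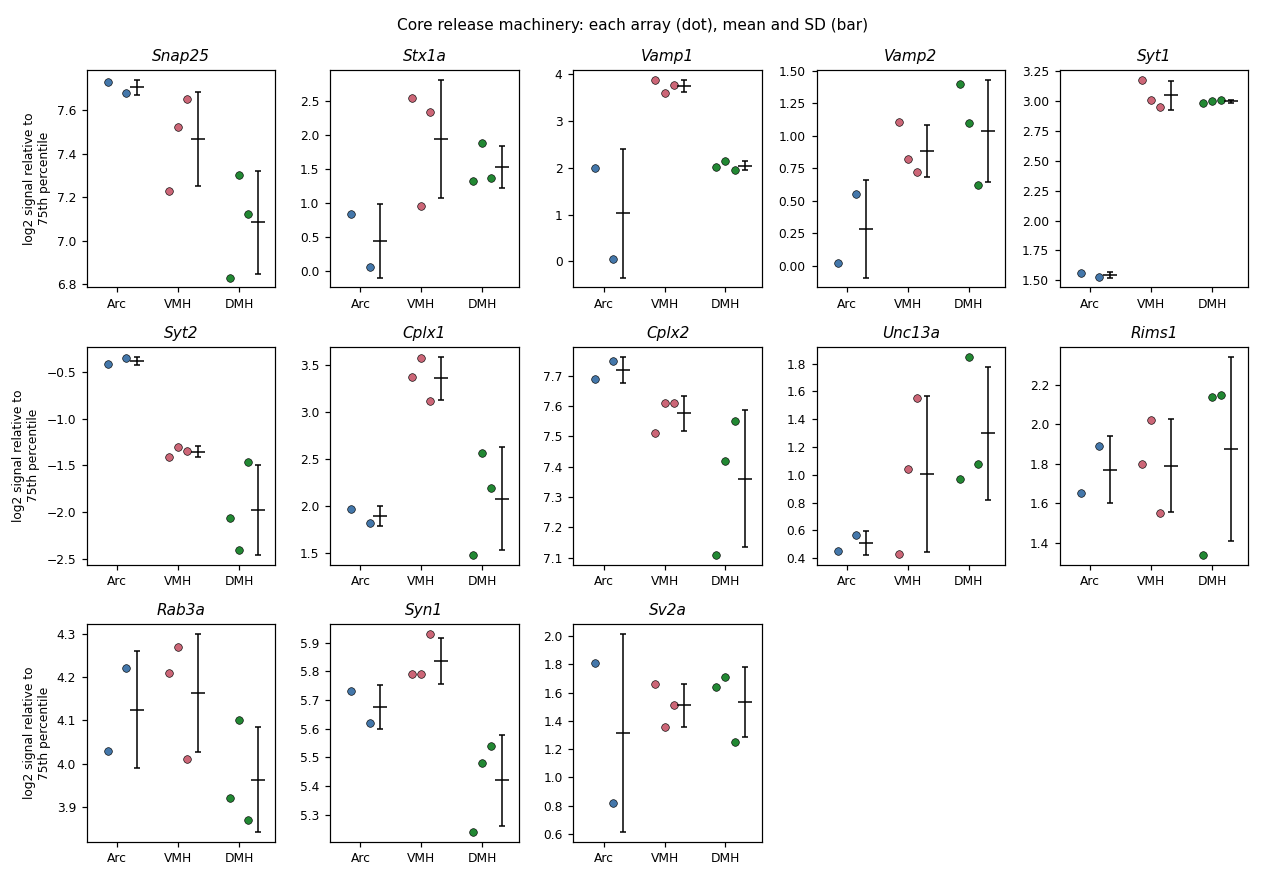
Log2 signal relative to the array's 75th percentile (vertical axis, a separate scale per gene) of core genes, with a dot per array and a bar for the mean and SD of Arc (blue, n = 2), VMH (red, n = 3) and DMH (green, n = 3). Syt1 and Vamp1 show the separations that passed a test, while Rims1 and Sv2a overlap between all nuclei.

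Genes that act beside the members were taken from 6 lists of related genes. Of all genes, 2.24% passed at least 1 of the 7 tests. Of 7 NSF and SNARE partners, Napb, a neuronal adaptor that brings NSF to spent SNARE complexes, was called, and it was higher in VMH (4.36, 4.27 and 4.20, against 3.24 and 3.20 in Arc and 3.21, 3.36 and 3.26 in DMH; difference 1.03, adjusted p = 0.0216). Of 12 vesicle membrane proteins, Syngr4, a synaptogyrin, was lower in DMH (1.04, 1.72 and 1.60, against 2.99 and 2.62 in Arc and 2.87 to 3.00 in VMH; difference -1.43, adjusted p = 0.0332). Of 9 active zone scaffold genes, Ppfia2, which encodes liprin-alpha-2, was lower in Arc at -6.20 and -6.18, where neither array was above background (-2.94, -3.73 and -2.46 in VMH and -1.52, -3.06 and -2.97 in DMH; adjusted p = 0.0305). None of 6 tested priming and calcium-binding factors passed limma's tests (3 at an unadjusted F p under 0.05, background 17.7%). The smallest F p among them was that of Cadps2 (adjusted p = 0.0814). None of 15 endocytosis genes passed either (3 at an unadjusted F p under 0.05, background 17.7%), with the smallest F p for Sh3gl2 (adjusted p = 0.0811).

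Promoters are printed for Rab3b and Vamp1, the called members with a single RefSeq entry (assembly GRCm38.p6) that runs from 250 bases before to 50 after the start of the gene. They set the VMH-low Rab3b beside the VMH-high Vamp1. Rab3b lies at chr4:108878820-108879119 and Vamp1 at chr6:125215331-125215630, both on the plus strand. Capitals mark matches, on either strand, to TGACG (a half-site of the cAMP response element) or GGGCGG (a GC box), and GGGCGG matches may overlap each other.

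Rab3b: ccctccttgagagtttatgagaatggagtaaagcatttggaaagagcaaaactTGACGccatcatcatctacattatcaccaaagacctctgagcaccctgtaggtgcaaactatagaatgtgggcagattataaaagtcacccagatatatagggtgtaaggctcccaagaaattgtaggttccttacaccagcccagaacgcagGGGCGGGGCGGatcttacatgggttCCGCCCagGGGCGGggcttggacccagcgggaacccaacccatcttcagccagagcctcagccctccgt
Vamp1: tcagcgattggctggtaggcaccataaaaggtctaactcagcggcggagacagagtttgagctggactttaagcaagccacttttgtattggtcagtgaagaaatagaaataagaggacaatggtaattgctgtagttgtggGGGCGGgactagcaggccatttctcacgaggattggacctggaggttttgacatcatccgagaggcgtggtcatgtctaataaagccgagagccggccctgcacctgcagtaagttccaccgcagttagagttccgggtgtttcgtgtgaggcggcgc

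The Rab3b promoter held 1 match to TGACG and 4 to GGGCGG, and the Vamp1 promoter held 1 to GGGCGG. Over the 32851 promoters of the same length, 20.8% held TGACG and 35.7% held GGGCGG, and over the 70 promoter entries of members 17 and 44 did. AAGGTCA, the half-site bound by the VMH factor Nr5a1, was in 4.72% of all promoters and in 3 of the 70 entries of members. No entry of the called Rab3b, Sv2b, Syt1, Syt9 and Vamp1 held it. Sytl2 and Syt17, also called, had no entry and were not searched. The 70 entries covered 54 of the 72 member genes. A match is a description of these letters, and the lack of one says nothing about the factor.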

How the data were processed

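Expression was measured on 8 single-colour Agilent arrays (Arc 2, VMH 3, DMH 3), grouped by the labels. Red spot intensities were used as deposited: per the file headers, Agilent's software had subtracted background and detrended them, without scaling arrays to each other. The submitters' processing notes give that software as Agilent Feature Extraction, version 11.5.1.1. Its flags for outliers and for spots well above background were used too. Between 72.4% and 78.7% of 55681 probes were well above background, no member probe was saturated, and the number of arrays limits the precision. All arrays shared 1 slide and 1 scan.

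Log2 intensities were set against the 75th percentile of each array. Outlier spots were left out, spots of a probe averaged, and the brightest probe that passed the filter stood for a gene. The fit (R 4.3.3, limma 3.58.1, data.table version 1.17.8) gave each nucleus its own mean over the 8 arrays, using lmFit then eBayes, with Benjamini-Hochberg adjustment over 27419 genes within each test, and the method was tested on simulated data. The 72 members, the related lists and the markers were chosen with earlier results of these data known. Named with values were members past the threshold, Sytl2, the core genes, the 2 members of each family with the smallest F p, and members with dim probes. Disagreeing probes are given for some members only. Stxbp2, for which they are not given above, had VMH minus the others at 0.50 on its brightest probe and -0.69 on another. Members named only for the position of their arrays, and Sytl1, Sytl4, Syt7, Syt10, Rab3c, Syn3 and Cplx3, were chosen after their values were seen. Alternatives were other background correction, scaling, filters, probe summary, variance model, blocks and left-out arrays. Some results for genes that this rule names are left out of the text and the figures and are not reported here.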

Additional observations from a re-analysis of the deposited data

How the results depend on the processing

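All alternatives were taken one at a time, 10 of processing and 8 that each left out 1 array. Without an Arc array the lone Arc sample was assumed to vary like the other groups. Of 353 values of the 20 called differences under the alternatives, 235 kept their call, 118 lost it and 0 changed direction. The count over all genes tested stands in brackets after each count of members. Calls in the F test (6 members [471 genes]) became 12 [727] with normexp correction, 11 [719] with trended and robust eBayes and 2 to 8 [150 to 518] without 1 array. For VMH against the others (6 [368]) they became 10 [527] with normexp, 10 [511] with trended and robust eBayes and 2 to 6 [106 to 345] without 1 array. For Arc against the others (5 [167]) they became 2 [89] without a filter on dim probes, 3 [132] with only probes above background on all arrays, 2 [79] with the slide row as a block and 1 to 5 [58 to 289] without 1 array. For DMH against the others (0 [230]) they became 1 each with normexp [316], quantile normalization [226], a floor on dim signals [262] and the mean of a gene's probes [278], 2 [302] with trended and robust eBayes and 0 to 3 [40 to 279] without 1 array. DMH against VMH (3 [337]) gave 7 [499] with normexp, 6 [404] with the floor, 7 [417] with the mean of probes, 7 [465] with trended and robust eBayes and 0 to 6 [115 to 289] without 1 array. DMH against Arc (1 [114]) gave 2 [233] with normexp, 2 [154] with quantile normalization, 3 [207] with the mean of probes, 0 [41] without a filter, 0 [55] with the slide row as a block and 0 to 3 [38 to 245] without 1 array. VMH against Arc (5 [268]) gave 8 [408] with normexp, 9 [396] with trended and robust eBayes and 2 to 7 [95 to 342] without 1 array. The cause of these changes was not tested. Within each of the 2 slide rows, all 20 called differences kept their direction. The median difference of DMH from Arc over all genes shifted to -0.12 without a filter on dim probes and to -0.11 without Arc replicate 1.

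The labels give the nuclei shared replicate numbers without saying what a number marks. Deviations of same-numbered arrays from their group means correlated at 0.072 to 0.185 over 7 pairs and those of other pairs at -0.126 to 0.015 over 14. All 8 arrays correlated best with their own number, which is a hint from the data and not from the design. Deviations cancel out within a nucleus, so neither the pairs nor the 8 arrays count as separate results. The 2 Arc arrays are exact mirrors (correlation -1). With the replicate number as a block, the F test called 2 [170] members, VMH against the others 2 [143], Arc against the others 0 [40], DMH against VMH 1 [163], DMH against Arc 0 [32] and VMH against Arc 1 [74]. Under that block 4 of the 20 called differences held: Rab3b and Sytl2 in VMH against the others, Rab3b in DMH against VMH and Sytl2 in VMH against Arc.

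With 2 or 3 arrays per nucleus, many adjusted p-values lie near the threshold, and a missed threshold does not show that levels are alike. Signals near background (Sytl2, Sv2b, Stxbp6 and Cplx4) give differences whose size depends on how dim signals are treated. Most members rest on 1 probe.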
